A study of Mus musculus with 2 samples.

Results

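The replication-dependent histone genes are the genes that supply core and linker histones to newly made DNA. They were taken as all protein-coding genes of GENCODE M21 (mouse build GRCm38, also called mm10) whose symbols begin with Hist1h, Hist2h, Hist3h or Hist4h. The rule found 67 genes among the 21670 that code for protein on the autosomes and X. They comprise 6 genes for the linker histone H1, 18 for H2A, 18 for H2B, 12 for H3 and 13 for H4. By cluster, 54 are Hist1 genes on chromosome 13, 10 are Hist2 genes on chromosome 3, 2 are Hist3 genes on chromosome 11 and 1 is the Hist4 gene on chromosome 6.

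DNase I accessibility of cerebellum was measured at postnatal day 4 (P4) in 2 libraries, made from male mice of the strain B6CASTF1/J, the F1 hybrids of C57BL/6J and CAST/EiJ. Both libraries form 1 group, numbered by the labels as biological replicates 1 and 2, and the label of each names 3 males, so each library is taken as a pool of animals. The group carries no treatment or engineered allele, and all reads were placed on the mm10 assembly. With 1 group there is no comparison between conditions and no test was run: histone promoters are set beside all coding genes of the same libraries, and genes are not replicates. DNase I cuts DNA where no nucleosome covers it, so a peak marks an open stretch, and a footprint is a short run of bases inside it that was cut less than its surroundings. The value of a peak is the authors' normalised signal, and its depth in reads is unknown.

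Replication-dependent histone genes are short, mostly without introns, and their mRNAs end in a stem-loop instead of a poly(A) tail. They lie in clusters and are transcribed while DNA replicates, in a nuclear body gathered around the coactivator NPAT. In the cerebellum of the first postnatal days, granule cell progenitors of the external granular layer divide rapidly and are the main dividing population. In whole tissue, fewer cells with an open promoter and a less open promoter in each cell cannot be told apart.

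The 2 libraries differed in yield. Replicate 1 had 61896 peaks and 112281 footprints, and replicate 2 had 131518 peaks and 261301 footprints, and the median value of all peaks was 0.787 in replicate 1 and 0.625 in replicate 2. Of 6 genes that mark cerebellar cells, En2, Zic1, Atoh1 and Neurod1 had a promoter peak in both libraries, Pax6 had one in replicate 2 alone and Barhl1 in neither. None of 4 genes that mark other tissues (Alb, Myod1, Ins2, Cd3e) had one.

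The H4 genes carried the highest promoter peaks among the histone genes, and most of them shared a footprint over the same short sequence. This is GGTCCG, the core of the element of H4 promoters that the zinc finger protein HINFP recognises. The footprints of replicate 2 over this core are printed here because they carry the clearest sequence feature of the H4 genes. Each reads 5′ to 3′ on the strand of its gene in GRCm38, with the core in capitals where the whole core lay inside the footprint.
Hist1h4c (chr13:23698478-23698522, minus strand): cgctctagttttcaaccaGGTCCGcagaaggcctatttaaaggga
Hist4h4 (chr6:136804442-136804482, minus strand): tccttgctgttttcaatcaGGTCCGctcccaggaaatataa
Hist1h4d (chr13:23581521-23581549, plus strand): GGTCCGcattggtattataaaagccagga
Hist1h4k (chr13:21750565-21750588, minus strand): ttcGGTCCGcccgccgcagtataa
Hist1h4i (chr13:22041400-22041425, minus strand): gtttctgttttcactccGGTCCGcaa
Hist1h4h (chr13:23531039-23531055, plus strand): GGTCCGaaaacactgca
Hist1h4b (chr13:23756933-23756953, plus strand): ttctcaaccaGGTCCGataag
Hist1h4f (chr13:23551698-23551713, minus strand): gtccgcattcgccata
Hist2h4 (chr3:96263364-96263378, minus strand): gtccgatcctctcat
In 7 of these 9 the footprint held all 6 bases of the core, and in Hist1h4f and Hist2h4 its edge fell inside the core and left out the first base. Coverage was lower in replicate 1, where a footprint touched the core at 8 of the 12 H4 genes that hold it. Only 4 of those footprints held all 6 bases.

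The promoters themselves are shown for 5 genes and 2 shared intervals, chosen as the H4 genes at the top of the order, the H4 gene at its bottom, the highest H3 and H1 genes and 2 of the H2A/H2B pairs that share a peak. For single genes the 150 bp before the annotated start are given (200 bp for H1), and for the pairs the whole interval between the 2 starts. All are GRCm38 reference sequence, which is that of C57BL/6J and not of CAST/EiJ, and capitals mark bases inside a footprint of replicate 2.
Hist1h4a (chr13:23761231-23761380, minus strand): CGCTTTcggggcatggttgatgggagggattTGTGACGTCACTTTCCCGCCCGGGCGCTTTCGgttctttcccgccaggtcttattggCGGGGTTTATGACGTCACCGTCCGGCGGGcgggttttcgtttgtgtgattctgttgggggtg
Hist1h4c (chr13:23698455-23698604, minus strand): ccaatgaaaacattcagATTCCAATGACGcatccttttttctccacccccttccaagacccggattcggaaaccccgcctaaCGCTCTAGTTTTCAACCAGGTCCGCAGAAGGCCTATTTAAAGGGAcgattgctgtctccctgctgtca
Hist1h4m (chr13:21811596-21811745, plus strand): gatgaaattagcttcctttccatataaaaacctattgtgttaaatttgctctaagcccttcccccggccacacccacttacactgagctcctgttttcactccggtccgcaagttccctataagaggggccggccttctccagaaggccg
Hist1h3e (chr13:23562370-23562519, minus strand): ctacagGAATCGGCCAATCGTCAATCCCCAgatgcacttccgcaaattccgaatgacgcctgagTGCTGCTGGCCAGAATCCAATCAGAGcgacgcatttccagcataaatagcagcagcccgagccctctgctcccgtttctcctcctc
Hist1h1c (chr13:23738608-23738807, plus strand): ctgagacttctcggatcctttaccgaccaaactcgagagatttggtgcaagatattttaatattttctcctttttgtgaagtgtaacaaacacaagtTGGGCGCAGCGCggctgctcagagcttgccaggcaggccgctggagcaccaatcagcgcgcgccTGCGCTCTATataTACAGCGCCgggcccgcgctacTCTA
Hist1h2bf/Hist1h2ad (chr13:23574197-23574380, plus strand): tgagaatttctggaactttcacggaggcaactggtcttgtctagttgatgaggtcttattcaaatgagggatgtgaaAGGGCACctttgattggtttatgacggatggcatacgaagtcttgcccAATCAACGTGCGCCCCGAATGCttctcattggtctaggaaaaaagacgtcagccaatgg
Hist1h2ag/Hist1h2bj (chr13:22042945-22043213, plus strand): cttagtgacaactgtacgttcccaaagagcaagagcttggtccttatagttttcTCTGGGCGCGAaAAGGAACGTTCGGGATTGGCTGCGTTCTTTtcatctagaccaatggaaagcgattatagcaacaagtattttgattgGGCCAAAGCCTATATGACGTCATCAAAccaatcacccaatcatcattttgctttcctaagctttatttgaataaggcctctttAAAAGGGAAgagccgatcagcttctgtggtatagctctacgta
Hist1h4m has no capitals, and its 150 bp are identical to those of Hist1h4n.

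A promoter peak was a peak of the larger deposited list within 500 bp of an annotated coding start, and where several qualified the one with the highest value stood for the gene. Such a peak was present in both libraries at 51 of the 67 histone genes (76.1%), against 12774 of 21670 coding genes (58.9%). The chosen peak was centred more than 250 bp from the start at 8 histone genes in replicate 1 and 2 in replicate 2. In replicate 1 these included Hist3h2ba, Hist3h2a and Hist1h3i, with centres 339, 296 and 376 bp downstream. Replicate 1 had a peak at 51 histone genes, where 59.9% of all coding genes had one, and replicate 2 at 57, where 65% of all coding genes had one. No histone gene had a peak in replicate 1 alone, 6 had one in replicate 2 alone and 10 had none. The share was highest for H4, with 12 of 13 genes open in both libraries, then H2B with 14 of 18, H2A with 13 of 18, H1 with 4 of 6 and H3 with 8 of 12.

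The background itself differed with CpG content. The 1001 bp windows of histone genes held a median of 62 CpG dinucleotides, with a range of 4 to 105, against 42 for all coding genes. When all coding genes were ranked by CpG number into 10 equal classes, 21 histone genes fell in class 8, with 64 to 76 CpG, and all 21 were open in both libraries, against 93.3% of the coding genes of that class. In class 6, 10 of 15 histone genes were open, against 86.5% of all coding genes of the class, and in class 7, 11 of 14 against 90.5%. Of the 11 histone genes in classes 9 and 10, 3 of 7 and 2 of 4 were open, against 93.3% and 94.9%. The remaining 6 members had fewer CpG, with 3 of 4 open in class 5, 1 of 1 in class 4 and 0 of 1 in class 1, against 67.8%, 33.9% and 2.45%. The 4 members of class 9 and the 2 of class 10 that were not open in both libraries all lie in near-identical copies, described below, whose peaks cannot be read. Without such copies 3 of 3 members were open in class 9, 2 of 2 in class 10 and 10 of 12 in class 7, while class 6, which holds none, stayed at 10 of 15.

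Open histone promoters ranked below the middle of open coding promoters in replicate 1 and near it in replicate 2. Their median value was 1.35 in replicate 1 and 3.88 in replicate 2, against 2.11 and 4.00 for all coding genes with a promoter peak. As a percentile rank among the coding genes with a promoter peak in each library, the median histone gene stood at 29.5 in replicate 1 and 48.8 in replicate 2, against 50 for all coding genes by construction. For genes open in both libraries, the median of the mean rank over both was 37.9, against 53.0 for all coding genes. Ranks ran from 2.61 for Hist1h4m to 93.5 for Hist1h4a. Among the 51 genes open in both libraries, only H4 genes ranked above 75. The ranges of the 5 types overlapped. Hist1h4m is one of the near-identical copies, and among the members outside such copies the lowest rank was 6.42, of Hist1h1b, and the lowest H4 rank 35.9, of Hist1h4b.

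**Figure D1:**
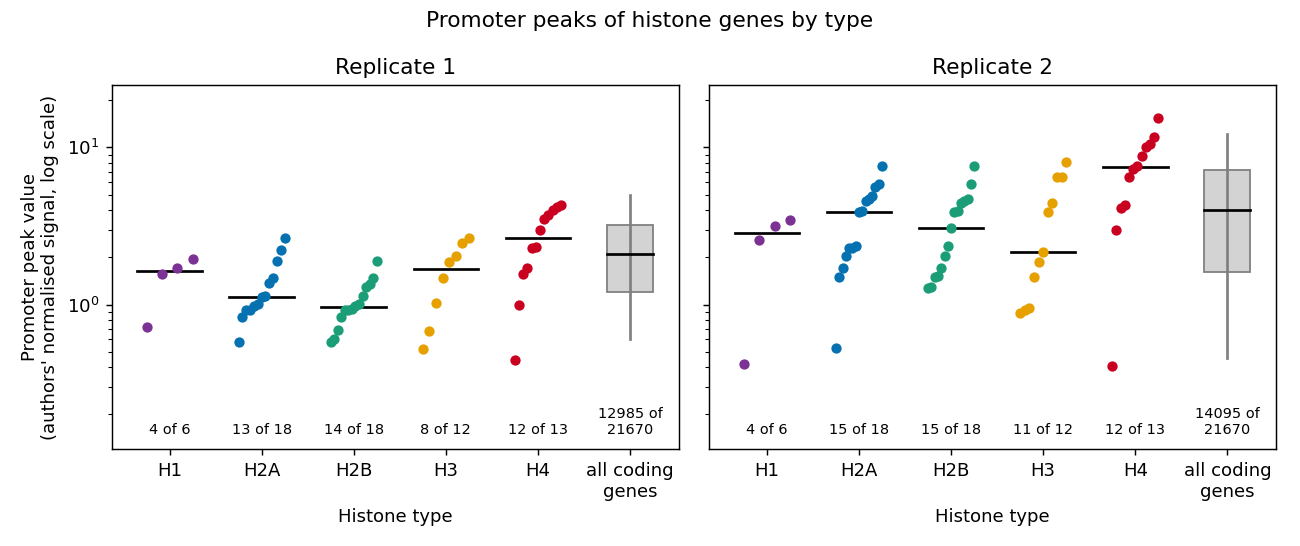
Promoter peak values (authors' normalised signal, log scale) by histone type in each library, 1 point per gene with a peak and a black line at the median; the numbers along the bottom give how many genes had a peak, and the grey box shows the middle 50% of all coding genes with its median, with a line from the 5th to the 95th percentile. H4 lies highest in both panels, with medians of 2.66 and 7.48, and its lowest point is Hist1h4m.

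H4 wraps DNA together with H3 and is made from genes that encode the same or nearly the same protein. The median H4 promoter stood at 2.66 in replicate 1, at 7.48 in replicate 2 and at a mean rank of 73.3. Hist1h4a had the highest mean rank, at 4.15 in replicate 1 and 15.3 in replicate 2. Hist1h4c followed with 4.02 and 11.6, and Hist4h4, the gene that stands alone on chromosome 6, with 4.28 and 8.80. Replicate 1 put Hist4h4 above the other 2 and replicate 2 put it below them, so the order among these 3 was not the same in the 2 libraries. Below them, Hist1h4i (3.72 and 7.65), Hist1h4h (2.98 and 10.5) and Hist1h4k (3.48 and 6.51) ranked at 80.4, 80.2 and 75. Hist1h4b, at 0.993 and 4.33, and Hist1h4m, at 0.445 and 0.406, were the lowest.

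H3 is the partner of H4 in the nucleosome core. Its genes had medians of 1.67 and 2.15 in replicates 1 and 2, over 8 and 11 genes with a peak, and over the 8 open in both libraries the replicate 2 median was 4.16. Hist1h3e (2.66 and 8.04), Hist1h3b (2.45 and 6.51) and Hist1h3g (2.03 and 6.51) led, with mean ranks of 71.7, 64.7 and 59.3. At the other end stood Hist1h3i, at 0.523 and 1.5, and Hist1h3f, at 0.677 and 1.86. The start given for Hist1h3f lies 433 bp from the first base of its coding sequence, and its peaks were centred 510 bp and 398 bp downstream of that start, near the coding sequence. Hist1h3d (0.878), Hist1h3a (0.925) and Hist2h3c2 (0.945) had a peak in replicate 2 alone, and Hist2h3c1 had none.

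H2A and H2B form the dimers on either side of the nucleosome core. H2A genes had medians of 1.11 and 3.88, and H2B genes of 0.958 and 3.05, in replicates 1 and 2. The highest H2A promoters were those of Hist2h2aa2 (2.67 and 5.61), Hist3h2a (2.24 and 4.92) and Hist1h2ad (1.88 and 5.87). Among H2B genes, Hist1h2bf (1.88 and 5.87), Hist1h2bp (0.922 and 7.66) and Hist1h2bj (1.48 and 4.69) led. Hist1h2ad and Hist1h2bf have the same values because they share 1 peak. The lowest were Hist1h2ak (0.574 and 2.04) and Hist1h2ae (0.929 and 1.5) for H2A, and Hist1h2bm (0.690 and 1.28) and Hist1h2be (0.600 and 1.70) for H2B. Hist3h2ba, the H2B gene of the small cluster on chromosome 11, had 1.35 and 3.05. Hist1h2af (2.28), Hist1h2bh (1.52) and Hist1h2ab (0.526) had a peak in replicate 2 alone.

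The value of Hist1h2be needs its own reading. The annotated starts lie 35138 bp or more from the first base of its coding sequence and inside the gene Hist1h1e (chr13:23620629-23622558). The peaks counted for Hist1h2be in the 2 libraries also lay inside Hist1h1e. Around the first coding base itself the peak values were 0.806 in replicate 1 and 1.41 in replicate 2. Both libraries thus had a peak at the coding sequence as well, next to 0.600 and 1.70 at the annotated starts.

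H1 binds the linker DNA between nucleosomes. The 4 H1 genes with a peak had medians of 1.63 in replicate 1 and 2.86 in replicate 2. Hist1h1c (1.70 and 3.43), Hist1h1e (1.96 and 2.57) and Hist1h1a (1.57 and 3.16) lay close together, with mean ranks of 41.7, 41.1 and 38.7, and the spread between libraries was larger than the gaps between them. Hist1h1b, at 0.716 and 0.419, was lower in both libraries. The testis linker histone gene Hist1h1t had no peak in either library.

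The 10 members without a promoter peak in either library were Hist1h1d, Hist1h1t, Hist1h2aa, Hist1h2ba, Hist1h2ao, Hist1h2ap, Hist1h2bq, Hist1h2br, Hist1h4n and Hist2h3c1. The deposited FDR tracks, which list the short intervals whose cut rate passed a false discovery rate of 0.05, held no interval in the window of any of the 10 in either library. Hist1h1t, Hist1h2aa and Hist1h2ba are known as histone genes of the male germ line. Hist1h1d is placed by its GENCODE start 1770 bp from its RefSeq start, and at the RefSeq start it had a peak of 0.935 in replicate 1 and 1.57 in replicate 2.

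The other 6 lie in near-identical copies. For every member the share of 31-base words of its 1001 bp window that occur once in the GRCm38 genome was counted on both strands. It was 0% for Hist1h2ao, Hist1h2ap, Hist1h2bq and Hist1h2br, 2.78% for Hist1h4n and 3.19% for Hist2h3c1. Only 2 further members were under 5%, Hist2h3c2 at 3.19%, with a peak of 0.945 in replicate 2 alone, and Hist1h4m at 3.71%, with the lowest mean rank of the family. Of the 8 members under 5%, 1 was open in both libraries, while of the other 59, 50 (84.7%) were. The sources used here do not give how reads that fit several places were handled, so a closed promoter and a promoter to which no read could be assigned cannot be told apart at these 8 genes. Values of Hist2h2aa2 and Hist2h2aa1, at 27.2% and 33.2%, also rest on a small share of unique sequence.

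**Figure D2:**
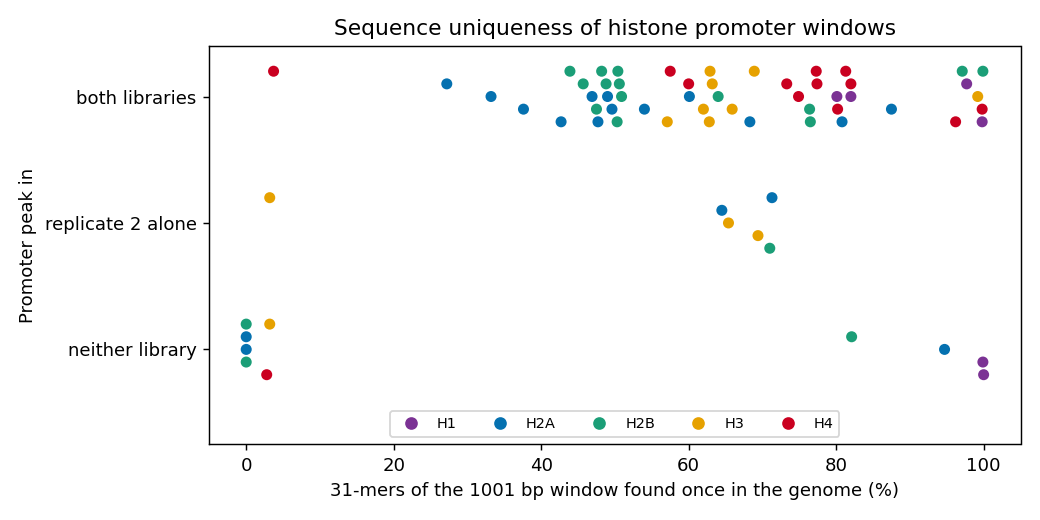
Share of the 31-base words of each histone gene's 1001 bp window that occur once in the genome, in percent, by the libraries in which the gene had a promoter peak; each point is 1 gene, coloured by type. The group without a peak splits into 6 genes at 0% to 3.19% and 4 genes at 82.1% or more.

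Footprints at H4 genes were commonest in the 100 bp before the start. Between 60 and 51 bp before the start, a base lay in a footprint at 37.5% of H4 genes with a peak in replicate 1 and at 61.7% in replicate 2, and these were the highest shares in any bin of 10 bp within the window. In replicate 1 the neighbouring bins were nearly level with it, between 30.8% and 36.7% from the bin that begins at −100 to the one that begins at −40. Replicate 2 had further high bins, of 37.5% at −140 and 44.2% at 10 bp after the start, and with 12 genes each gene counts for 8.33% of a bin. For all coding genes with a peak the highest shares were 16.3% and 26%, both in the bin that begins 20 bp before the start. All histone genes together reached 20% in replicate 1, in the bin that begins at −80, and 29.1% in replicate 2, in the bin that begins at −150.

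**Figure D3:**
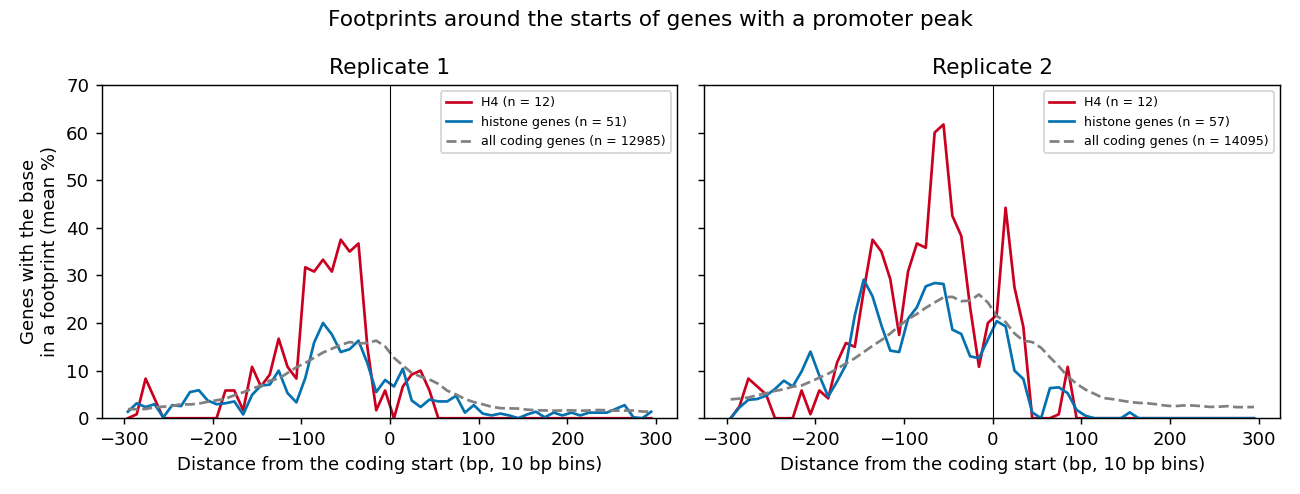
Share of genes with a promoter peak whose bases lie in a footprint, as the mean percent of each 10 bp bin, by distance from the 5′-most coding start in each library. The H4 line rises to 37.5% and 61.7% between 60 and 51 bp before the start, and the dashed line of all coding genes stays at or below 16.3% and 26%.

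Of the 13 H4 promoters, 12 (92.3%) held GGTCCG in the 300 bp from 250 bp before to 50 bp after the start, against 15 of 67 histone promoters (22.4%) and 9.86% of all coding promoters. All 12 matches were on the strand of the gene, with the first base 80 to 11 bp before the GENCODE start and a median of 49 bp. The GENCODE transcript of Hist1h4k, at 80 bp, begins at the start codon, and its RefSeq start lies 48 bp away. At Hist1h4b the RefSeq start (chr13:23756937) lies upstream of the core, which begins at chr13:23756943. These distances thus depend on the annotation. In each library 10 of the matches lay in a peak, and the centre of the match lay in a footprint at 7 of 10 in replicate 1 and 9 of 10 in replicate 2. For all coding genes the shares were 17.2% in replicate 1 and 28.3% in replicate 2. Those matches could lie on either strand and anywhere in the 300 bp, and position and peak value were not matched to H4. Hist1h4j was the exception with a core inside its peak and no footprint over it in either library. At Hist2h4 and Hist1h4b the centre of the core was in a footprint in replicate 2 alone. A match is a description of letters and not a measured binding site.

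Hist1h4a, the histone gene with the highest mean rank, was the 1 H4 gene without the core. Its sequence printed above holds TGACGTCA, the cyclic AMP response element bound by CREB and ATF proteins, 2 times, and both copies lay in footprints of replicate 2. Over all histone genes, 4 of 67 promoters (5.97%) held TGACGTCA, against 2.48% of all coding promoters. Matches inside peaks lay in footprints at 2 of 3 sites in replicate 1 and 4 of 4 in replicate 2, against 62.4% and 69.2% for all coding genes. The E2F words TTTGGCGC and TTTCCCGC were found in 3 histone promoters, all of H4 (4.48%, against 2.07% of all coding promoters).

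CCAAT boxes and octamers were present at a larger share of histone promoters than of all coding promoters, and most matches lay outside footprints. CCAAT, bound by NF-Y, was present in all 18 H2A and all 18 H2B promoters and in 83.6% of histone promoters, against 38.8% of all coding promoters. Matches of CCAAT inside peaks were in footprints at 20.9% in replicate 1 and 25% in replicate 2, against 15.6% and 29.5% for all coding genes. ATTTGCAT, the octamer of H2B promoters bound by the POU protein encoded by Pou2f1, was present in 8 of 18 H2B promoters (44.4%) and 7 of 18 H2A promoters (38.9%), against 1.61% of all coding promoters. The H2A and H2B counts are not separate, since the 2 genes of a pair share their interval. No octamer lay in a peak in replicate 1, and none of the 6 that lay in a peak in replicate 2 was in a footprint. For all coding genes 2.74% and 5.88% of octamers in peaks were in footprints.

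TATAAA stood anywhere in the 300 bp of 55.2% of histone promoters, against 12.6% of all coding promoters. TATAAA beginning 40 to 20 bp before the annotated start, where a TATA box acts, was found at 7 of 56 members (12.5%) against 2.83% of all 21670 coding genes. From the members, 11 whose annotated transcripts begin at the start codon were left out, and no such step was applied to all coding genes. GGGCGG, the GC box bound by Sp1, was about as common in histone promoters (41.8%) as in all coding promoters (44.2%), and was most common for H4, at 10 of 13. Among promoters open in both libraries it was less common in histone genes, at 49% against 62.8%. Matches inside peaks were in footprints at 16.7% in replicate 1 and 36.4% in replicate 2, against 30.3% and 53.3% for all coding genes.

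Nearly every open histone promoter held a footprint. Of the 51 genes with a peak in both libraries, 49 (96.1%) had a footprint inside the peak in both, against 94.4% of all coding genes open in both. The exceptions were Hist1h4m, with no footprint in either library, and Hist2h2ab, with none in replicate 2. The 51 and 57 genes drew on 42 distinct peaks in replicate 1 and 48 in replicate 2, of which 41 (97.6%) and 45 (93.8%) held a footprint, against 94.8% and 96.5% of the promoter peaks of all coding genes. Footprints covered 14.1% of the bases of these histone peaks in replicate 1 and 20.4% in replicate 2, against 13.6% and 23.4% for all coding genes. For H4 the covered share was 18.5% and 32.5%. Of 103 footprints in histone promoter peaks of replicate 1, 61 (59.2%) overlapped a footprint of replicate 2, and of 163 in replicate 2, 59 (36.2%) overlapped one of replicate 1. Only 2 footprints had the same ends in both libraries.

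Most H2A and H2B genes face each other from a common interval, and at most of these pairs 1 peak was counted for both genes. Within 1000 bp, 13 pairs of histone genes start in opposite directions, 12 of them an H2A with an H2B gene, with 175 to 659 bp between the starts and a median of 267 bp. In 9 pairs both genes had the same peak in both libraries. The window of each gene spans the whole interval of its H2A/H2B pair, so any peak there counts for both genes. Sharing thus follows largely from the window, and whether 1 open stretch serves both genes was not tested. At Hist1h2ae/Hist1h2bg the peak counted for both in replicate 1 lay outside the interval, inside Hist1h2ae. The strongest pair by mean rank was Hist1h2bf/Hist1h2ad, with 1.88 in replicate 1 and 5.87 in replicate 2. Hist1h2ag/Hist1h2bj had 1.48 and 4.69, with 5 footprints in replicate 1 and 4 in replicate 2. In 3 pairs neither library had a peak: the male germ line pair Hist1h2ba/Hist1h2aa and the near-identical pairs Hist1h2bq/Hist1h2ao and Hist1h2ap/Hist1h2br. The pair of H2B and H3, Hist1h2bh/Hist1h3f, has the longest interval, of 659 bp, and shared no peak.

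Values were higher in replicate 2 at 49 of the 51 histone genes, and at 11834 of the 12774 coding genes open in both libraries. The median difference on the log2 scale, replicate 2 over replicate 1, was 1.51 for histone genes (SD 0.70 over genes, range −0.77 to 3.05), against 1.02 for all coding genes (SD 0.60). H2A and H2B genes had medians of 1.64 and 1.65, H3 genes of 1.49, H4 genes of 1.40 and H1 genes of 0.70. When each peak shared by 2 members was counted once, the histone median was 1.35. The strongest peaks of the 2 libraries overlapped at 47 of the 51 genes, with a median difference of 1.53, and lay apart at Hist1h2be, Hist1h3i, Hist3h2a and Hist3h2ba. The pair Hist1h2an/Hist1h2bp went furthest, with 7.66 in replicate 2 and 0.922 in replicate 1, a difference of 3.05 on the log2 scale, where the highest difference of any other coding gene was 3.04. Hist1h1b was lower in replicate 2 by the most, with a difference of −0.77, and Hist1h4m differed by −0.13. Replicate 2 also had more peaks, and the label of replicate 1 names Illumina NovaSeq and HiSeq instruments while none is known here for replicate 2. The part of either in this difference was not tested.

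**Figure D4:**
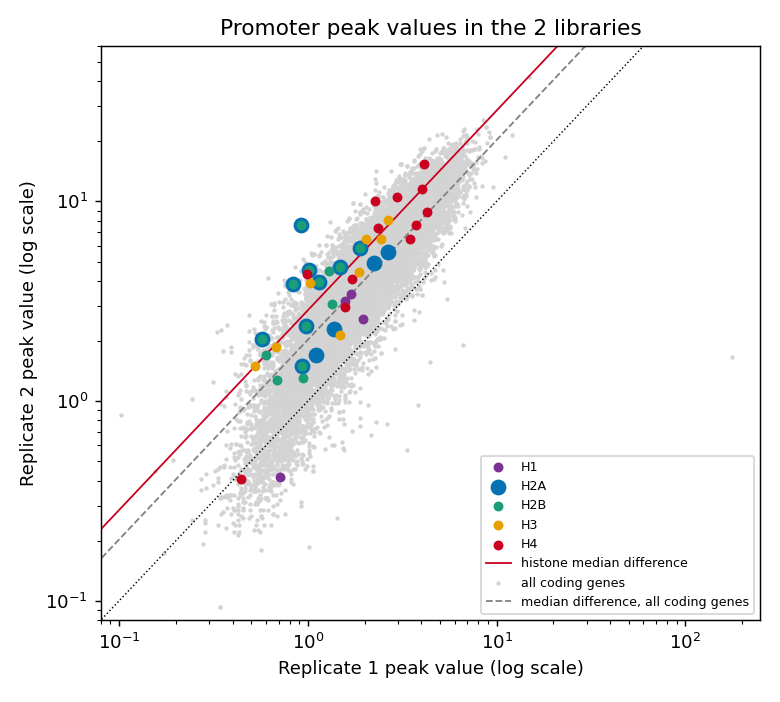
Promoter peak values in replicate 2 against replicate 1 on log scales for the 51 histone genes open in both libraries, coloured by type, over the 12774 coding genes in grey; where an H2A and an H2B gene share a peak, the H2A point shows as a rim. The red line marks the median log2 difference of histone genes (1.51), the dashed line that of all coding genes (1.02) and the dotted line equal values, and 2 histone points lie below equality.

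Peaks of the larger clusters lay mostly at the genes. Members less than 100 kb apart were joined into 7 stretches. The largest ran from Hist1h4h to Hist1h1a over 233 kb (chr13:23531050-23764406) with 29 members, and held 34 peaks in replicate 1 and 47 in replicate 2, or 14.5 and 20.1 per 100 kb, against 2.34 and 4.99 per 100 kb over the autosomes and X. Of these peaks, 24 and 31 were promoter peaks of members. Among the rest, 1 at chr13:23739681-23739900 was the highest in replicate 2, at 5.45, and overlapped a peak of 1.71 in replicate 1. The next stretch, from Hist1h2bl to Hist1h2br over 122 kb with 18 members, held 13 and 16 peaks. The Hist2 genes, 10 members over 50.3 kb of chromosome 3, held 11 and 13, of which 10 and 12 were promoter peaks of members.

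**Figure D5:**
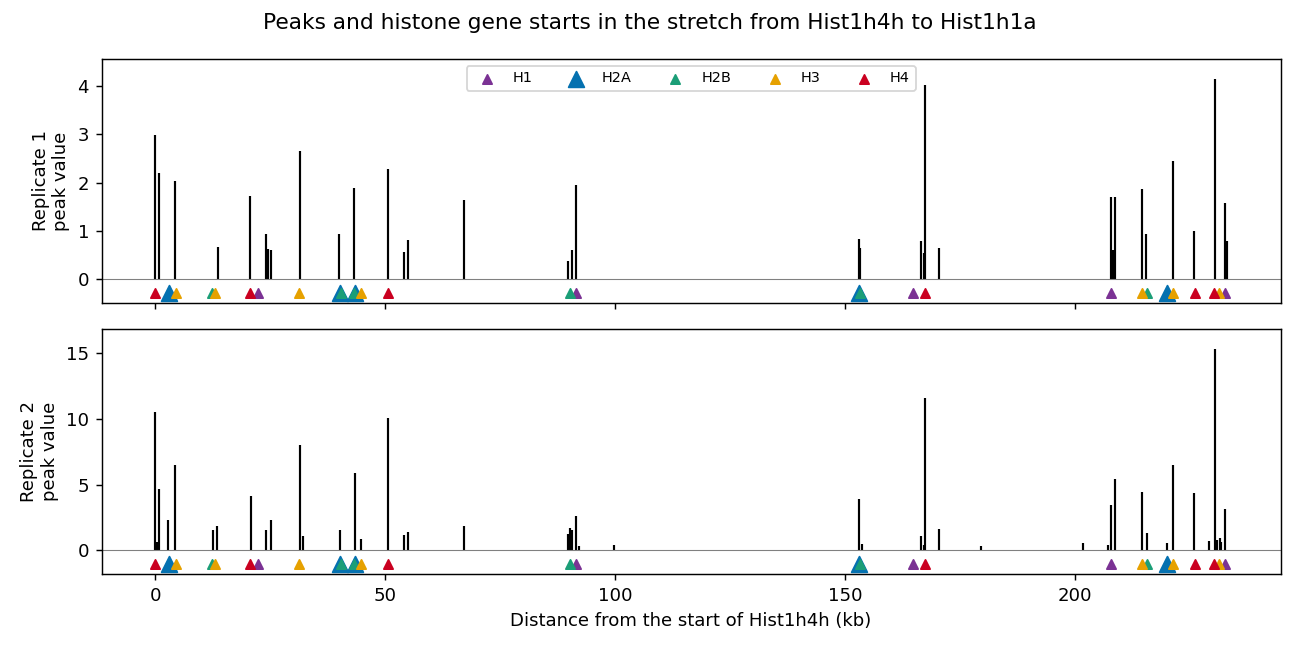
Peaks (vertical lines, height is the authors' normalised signal on a linear scale) and histone gene starts (triangles, coloured by type) by distance in kb from the start of Hist1h4h in the stretch that ends at Hist1h1a, replicate 1 above and replicate 2 below. The tallest lines stand at H4 starts, among them Hist1h4a with 4.15 and 15.3, and long intervals between groups of genes hold few peaks.

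Between the stretch that ends at Hist1h2bj and the one that begins at Hist1h4h lie 40 other coding genes, of which 36 are vomeronasal receptor genes with symbols beginning Vmn1r. This interval held 2.62 peaks per 100 kb in replicate 1 and 4.98 in replicate 2, close to the genome's 2.34 and 4.99. In the interval between Hist1h2br and Hist1h2ah, with 3 other coding genes, the density was 7.63 and 16.3 per 100 kb. The short stretch of Hist1h2ba and Hist1h2aa held no peak.

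Lists of genes with related roles had median promoter values above the histone medians of 1.35 and 3.88. The list medians were also above those of all coding genes, 2.11 and 4.00, though single members lay lower. All 17 genes listed for transcription and 3′ end processing of histone mRNA were open in both libraries, where 58.9% of all coding genes were. Their medians were 3.61 in replicate 1 and 8.00 in replicate 2, with a median mean rank of 79.7. The share of 58.9% is also the background for the chaperones and variants below. In CpG classes 6 to 10 the open share of coding genes was 86.5% to 94.9%. The CpG content of the listed genes was not compared, so their counts may be ordinary for such promoters. Npat, the coactivator of the histone loci, had 4.99 and 14.3, Casp8ap2, which takes part in 3′ end processing, 4.35 and 10.5, and Slbp, which binds the stem-loop, 2.93 and 6.14. All 12 histone chaperones listed were open in both, with medians of 3.43 and 9.34, among them Chaf1a (4.03 and 10.2) and Chaf1b (4.12 and 8.38), subunits of the factor that loads H3 and H4 behind the replication fork, and Asf1a (3.54 and 8.65). Of 13 genes for replication-independent histone variants, 11 were open in both libraries, with medians of 3.83 and 8.16. These include H3f3a (3.83 and 8.16) and H3f3b (2.94 and 9.23), which encode the same variant H3, and H2afz (4.97 and 12.3). The germ cell linker histone genes H1fnt and H1foo had no promoter peak. At the low end of the lists stood Atrx (0.832 and 2.22), a chromatin remodeller, and Cpsf2 (1.35 and 2.2), of the cleavage complex, with mean ranks of 22.5 and 30.6. Hira (3.5), H2afy (2.87), H2afy2 (3.6) and H1fx (3.61) were also below the histone median in replicate 2, and Cenpa (1.08) in replicate 1. H4 genes alone had medians of 2.66 and 7.48.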

How the data were processed

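DNase-seq of 2 libraries of P4 cerebellum was analysed from the files the authors deposited for each library. Peaks were deposited as narrowPeak lists on mm10, and the peak value is the signal column, which the authors normalised. The sources used here give neither the factor nor the aligner, callers or read length. The depth in reads is unknown, so no counting interval is given. The deposited FDR files hold q-values of the cut rate under 0.05. Footprints were used as positions, because the authors' value column is 0.01 on every line. The description files were not used.

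Genes came from GENCODE M21 on GRCm38; all steps ran over all 21670 coding genes of the autosomes and X. Overlap meant at least 1 bp. The search for overlaps was tested on simulated data. Motifs were matched exactly on both strands from 250 bp before to 50 bp after the 5′-most coding start, and a match was in a footprint when its centre was; sequences were read from the RefSeq genome of GRCm38, where all 67 members were found by symbol. RefSeq starts lay within 100 bp of a GENCODE start for 66. Python 3.11.15, numpy 2.4.6 and pandas 2.3.3 were used.

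Named genes were, per type, the 3 highest and 2 lowest by mean rank, members without a peak in a library, the Hist3 and Hist4 genes, the germ line genes, the strongest shared pair and the first 3 of each list; further genes were added where a count or position turned on them, chosen after their values were seen. The members, lists and motifs were chosen with earlier results of these data known.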

Additional observations from a re-analysis of the deposited data

How the results depend on the processing

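The values recomputed, under up to 13 alternatives each, were the number of histone genes open in both libraries (51), their median value over both libraries (2.56), the median log2 difference (1.51) and the number with a footprint in both libraries (49). Leaving out a library moved the median value to 3.88 without replicate 1 and 1.35 without replicate 2, so it depends on the library. Of the other 44 recomputed values, 43 stayed within 1.5 times for counts, the SD of the 2 library medians (1.83) for the median value and the SD over genes (0.70) for the difference. The limit for the median value is wide, since 3.88 and 1.35 also lie within it, so staying inside it says little. Under the other alternatives the median value ran from 2.55 to 3.08. The gene count ran from 38 with the stricter peak list to 62 with a window of 2000 bp, the difference from 1.29 to 1.60 and the footprint count from 32 to 59. The footprint count moved furthest, to 32, when the centre of a footprint had to lie within 100 bp of the start. Without replicate 1 and without replicate 2, the gene count was 57 and 51 and the footprint count 54 and 50; the difference needs both libraries. RefSeq starts, windows around the first coding base, shared peaks counted once and members with at least 5% unique 31-base words were chosen after seeing the data; the first 2 gave 52 genes each. No paired analysis was possible because the study has 1 group. A spread over 2 libraries is imprecise, and a low peak can be missed in the library with fewer peaks.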
